A study of Mus musculus with 100 samples.

Results

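Short interspersed elements (SINEs) are repeated copies of small non-coding RNA genes, and the peaks described here are the ChIP-seq peaks that the deposited annotation assigns to such a copy. They were taken from 12 tables of peaks for 8 nuclear factors by the element class in the annotation, with no use of tag counts, and were grouped by family into Alu (which in the mouse holds the B1 elements), B2, B4 and MIR. In all, 19929 of 525900 peak rows, or 3.79%, were SINE peaks. Of these, 6883 were B2, 5453 MIR, 4273 B4 and 2631 Alu, and 689 belonged to other families such as ID. The same copy can appear in several tables, and SINE peaks with centres within 100 bp of each other formed 7964 distinct loci, namely 3671 B2, 1492 B4, 1443 MIR, 1196 Alu and 242 other loci. Every SINE peak of the factor tables was annotated as intron or intergenic. A copy is named by the gene with the nearest transcription start, and the gene that holds an intron is named where it is another. For this reason the comparison set was usually the 339221 rows of intron and intergenic peaks with no repeat annotation, called non-repeat peaks below. In the RefSeq GRCm38 sequence, whose repeats are in lower case, the centre base was masked in 80.4% and 77.8% of B2 peaks in the PGC1β tables and in 52% to 70% in the other factor tables, in 39.2% to 56.2% of Alu and 23.7% to 35.5% of B4 peaks, and in 3.27% to 8.79% of MIR peaks, near the 6.47% to 11% of non-repeat peaks. This check therefore says nothing for MIR copies, and the part of these differences in the contrasts between factors and families was not tested.

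SINEs do not encode the enzymes of their own transposition. They are transcribed by RNA polymerase III and copied into DNA by the machinery of long interspersed elements. B1 elements derive from the RNA of the signal recognition particle, B2 and MIR elements from transfer RNAs, and B4 elements are fusions that contain B1-like and ID-like parts. MIR copies predate the split of the mammalian orders, whereas B1, B2 and B4 copies arose in rodents, and many rodent B2 copies carry the core of the motif bound by CTCF, an architectural protein that limits chromatin loops. Old copies such as MIR are known to have been taken up as parts of enhancers.

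The study asked how the corepressor NCoR, its partner deacetylase HDAC3 and the coactivator PGC1β act at enhancers that respond to Toll-like receptor 4 or to RANKL. The factor libraries came from wild-type cells of C57BL/6 mice aged 8 to 12 weeks, either bone marrow-derived macrophages (BMDMs) or bone marrow cells cultured as osteoclast precursors. BMDMs were starved of serum for 12 h and then received KLA (Kdo2 lipid A, an agonist of Toll-like receptor 4) for 6 h, or vehicle (Veh). ChIP was carried out for NCoR, HDAC3, p65 (the RelA subunit of NFκB), Fosl2 (an AP-1 subunit), PU.1 (the lineage factor of macrophages), PGC1β, ERK1 (a mitogen-activated kinase) and p300 (a histone acetyltransferase). The labels give 6 h for the Veh libraries of NCoR, HDAC3, p65, Fosl2 and PU.1. They give 0 h for those of p300 and no time for those of PGC1β and ERK1. A second PGC1β experiment compared DMSO plus Veh, DMSO plus KLA and an ERK inhibitor (ERKi) plus KLA, and one NCoR table added libraries of ERKi plus KLA. Precursors were profiled for ERK1 and p300 at day 0 and after 4 days of RANKL, the cytokine that drives osteoclast formation. H3K27ac, a histone mark of active regulatory DNA, was measured in NCoR flox/flox cells without (WT) or with LysMCre (NKO), which deletes in myeloid cells, in PGC1b flox/flox cells without or with LysMCre, and in wild-type cells given DMSO or the HDAC3 inhibitor RGFP966. Each group had 2 libraries, which the methods call biological replicates without tying them to animals, so that p-values measure the spread between these libraries. The labels put the NCoR libraries with ERKi on other dates than the rest of their table, so that date and ERKi cannot be told apart there and no fold change is given. The description of ERK1 day 4 replicate 2 gives it another replicate number and another date.

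The 48 distinct factor libraries held 4296236 to 21511411 tags, of which 2.79% to 52.8% lay in the peaks of their table. The shallowest was Fosl2 KLA replicate 1. The day 0 libraries of the osteoclast series had the lowest shares of tags in peaks, 2.788% and 2.975% for ERK1 and 3.081% and 3.163% for p300. At day 4 these shares were 6.458% and 4.503% for ERK1 and 9.608% and 9.534% for p300. Tags are given per 10000000 of a library's total. As a check of the labelled cells, promoters of 3 of 6 macrophage markers (Cd14, Cd68 and Spi1) held H3K27ac regions in the WT and NKO table, none of the osteoclast, T cell and B cell markers did, and 1 of 4 neutrophil markers (Camp) did. In the p300 osteoclast table, peaks stood at the promoters of 4 of 6 macrophage markers and of 2 of 5 osteoclast markers, Acp5 and Ctsk.

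The following sequences, 5′ to 3′ on the plus strand of mm10 (GRCm38), are 200-bp windows around the centres of named peaks. A window can hold DNA beside the copy, and whether a match lies within the copy was not tested. The first set is of B2 copies bound in PGC1β ChIP, namely the one that fell most clearly with KLA (nearest gene Phb) and the one that rose most clearly (Mdfic). The second set holds the B2, MIR and Alu copies with the clearest KLA gains of NCoR (St7, Slc27a3 and Kif3c) and the MIR copy with the clearest gain of p65 (Sh2d4a). Capitals mark matches on either strand to the CTCF, AP-1, C/EBP and IRF letters.
Phb B2_Mm2: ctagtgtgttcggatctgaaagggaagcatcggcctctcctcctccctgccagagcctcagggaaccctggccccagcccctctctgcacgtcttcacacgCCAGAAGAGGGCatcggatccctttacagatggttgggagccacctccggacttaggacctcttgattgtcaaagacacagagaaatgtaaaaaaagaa
Mdfic B2_Mm2: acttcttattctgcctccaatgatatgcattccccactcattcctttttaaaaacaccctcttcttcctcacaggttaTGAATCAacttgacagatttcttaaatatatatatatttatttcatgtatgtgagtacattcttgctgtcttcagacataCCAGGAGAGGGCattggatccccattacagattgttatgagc
St7 B3A: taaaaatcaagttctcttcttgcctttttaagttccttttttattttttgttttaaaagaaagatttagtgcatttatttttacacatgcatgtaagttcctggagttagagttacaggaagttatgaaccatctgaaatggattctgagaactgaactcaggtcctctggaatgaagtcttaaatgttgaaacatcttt
Slc27a3 MIRb: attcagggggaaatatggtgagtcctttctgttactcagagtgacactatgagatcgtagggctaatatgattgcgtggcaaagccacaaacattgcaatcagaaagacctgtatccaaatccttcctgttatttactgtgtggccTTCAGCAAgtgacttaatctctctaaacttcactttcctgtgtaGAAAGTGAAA
Sh2d4a MIRc: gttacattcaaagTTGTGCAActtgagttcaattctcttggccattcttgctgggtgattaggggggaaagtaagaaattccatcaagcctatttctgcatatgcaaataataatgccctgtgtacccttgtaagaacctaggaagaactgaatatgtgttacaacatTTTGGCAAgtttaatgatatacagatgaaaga
Kif3c B1F1: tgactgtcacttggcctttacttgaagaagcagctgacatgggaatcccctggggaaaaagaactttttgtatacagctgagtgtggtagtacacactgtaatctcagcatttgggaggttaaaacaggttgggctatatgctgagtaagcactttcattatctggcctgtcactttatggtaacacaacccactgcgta
The capitals in the Phb window at chr11:95687356-95687555 are the CTCF letters, which were CC, any 3 bases, AG, any 2 bases and GGC. In the Mdfic window at chr6:15671576-15671775 the first match is to the AP-1 letters TGANTCA and the second to the CTCF letters. The Slc27a3 window at chr3:90408823-90409022 holds a C/EBP match (TTGCNNAA, here on the minus strand) and an IRF match (GAAA, any 2 bases, GAAA). The Sh2d4a window at chr8:68209692-68209891 holds 2 C/EBP matches. It also holds, not in capitals, a match to the letters GTTCNANNC of the B box of RNA polymerase III. None of the letters searched were matched in the St7 and Kif3c windows at chr6:17778887-17779086 and chr12:3359490-3359689, which says only that these letters are not there.

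SINE copies took a similar small share of the peaks of most factors and a larger one of PGC1β peaks, and the excess was in B2. SINE peaks made up 6.83% of PGC1β peaks (3118 of 45675, exact Clopper-Pearson 95% interval 6.6 to 7.06) and 5.98% in the second PGC1β experiment (3199 of 53474, 5.78 to 6.19). In the other tables the share lay between 2.93% for PU.1 (1483 peaks) and 3.56% for ERK1 in BMDMs (993 peaks), with NCoR at 3.15% (1735 of 55045, 3.01 to 3.3), HDAC3 at 2.96%, p65 at 3.06%, Fosl2 at 3.31% and p300 at 3.46%. B2 copies held 4.78% of PGC1β peaks (2184 peaks, 4.59 to 4.98) and 3.83% in the second experiment (2048 peaks), whereas they held 0.521% to 0.906% of the peaks of each other factor. By contrast the Alu, B4 and MIR shares of PGC1β peaks, 0.42%, 0.701% and 0.795%, were each lower than those of NCoR peaks, 0.483%, 0.867% and 1.13%. B2 therefore made up 70.0% and 64.0% of the SINE peaks in the PGC1β experiments and 17.3% to 25.5% in the other factor tables. Among SINE copies in the open chromatin windows used for H3K27ac, B2 made up 32.8% (226 of 690) for DMSO and RGFP966 and for PGC1b flox/flox cells. For WT and NKO cells, which have other windows, it made up 17.9% (81 of 452). The intervals cover counting error only, and peaks of a table are not replicates, so no test was made between factors.

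**Figure D1:**
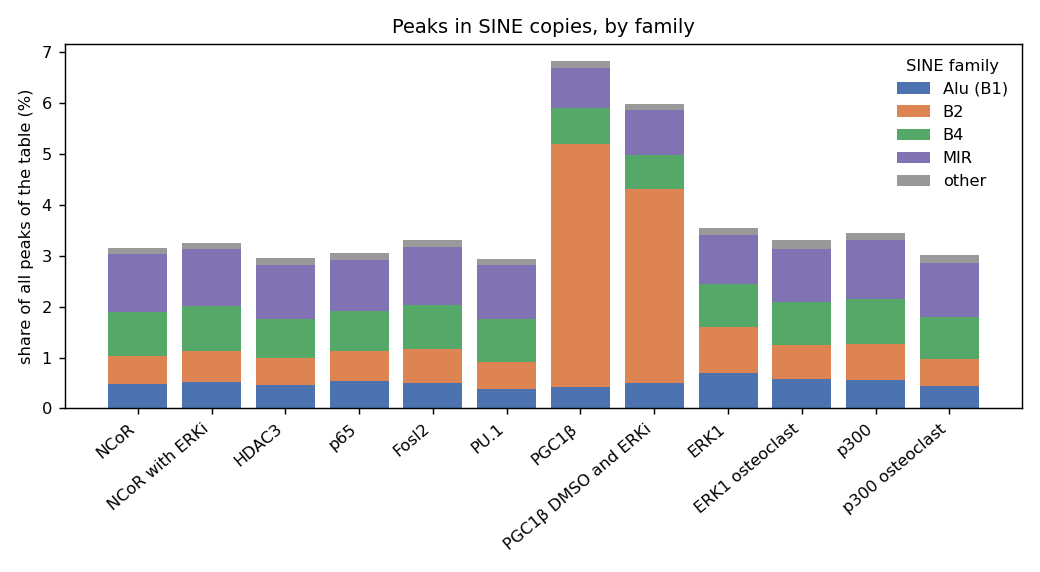
SINE peaks as a percentage of all peaks in each of the 12 factor tables (x axis, tables; y axis, %), stacked by family. Both PGC1β bars are the tallest, at 6.83% and 5.98%, and their B2 segment of 4.78% and 3.83% sets them apart from the other tables, where B2 stays at or below 0.906%.

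Within the PGC1β B2 peaks, 848 copies (38.8%) were of the subfamily B3, 830 (38.0%) of B2_Mm2 and 343 (15.7%) of B3A, with 110 B2_Mm1t and 53 B2_Mm1a copies. The B2 peaks lay in introns in 52.8% of cases, at a median of 15.4 kb from the nearest transcription start, which resembled their position in NCoR ChIP (57.0% in introns, 14.1 kb) and was closer than the 21.8 kb of non-repeat PGC1β peaks.

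The CTCF letters were in most PGC1β B2 peaks. They were found in the central 200 bp of 77.0% of them (1682 of 2184) and of 74.5% (1525 of 2048) in the second experiment. Among B2 peaks of the other factors in BMDMs, from PU.1 (12.5%), NCoR (15.7%), HDAC3 (19.0%), p65 (22.3%) and p300 (23.1%) to Fosl2 (27.6%) and ERK1 (32.8%), the letters were less frequent. Of all peaks, they were in 19.2% and 16.8% in the PGC1β tables and in 3.64% to 5.39% in the other factor tables. Non-repeat PGC1β peaks carried them in 17.5% and 15.6%, against 2.8% to 4.01% in the other factors' non-repeat peaks, so a higher share in PGC1β ChIP was not confined to repeats. The B2 copies that ATAC-seq found open, from the windows in which H3K27ac was counted, carried them in 50.9% (115 of 226) in the windows of the DMSO and RGFP966 and the PGC1b flox/flox tables and in 19.4% (14 of 72) in those of the WT and NKO table. CTCF itself was not measured, and a match of letters is a description of the sequence.

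The letters were often close to the peak centre in PGC1β B2 peaks, and their share differed among B2 subfamilies. Of the PGC1β B2 peaks that had them, 72.3% had a match within 25 bp of the peak centre (1216 peaks), and 74.9% (1142) in the second experiment. In B2 peaks of other factors this was 14.3% (HDAC3) to 50.6% (ERK1), with NCoR at 16.7% (8 of 48). It was not particular to B2 copies, since non-repeat PGC1β peaks with the letters had 69.4% and 68.5%. Open B2 windows with them had 75.7% (87 of 115) for DMSO and RGFP966 and PGC1b flox/flox cells. Those of WT and NKO cells had 14.3% (2 of 14). Among bound B2_Mm2 copies 90.1% carried the letters (748 of 830) and 89.8% in the second experiment, followed by B2_Mm1t with 88.2% and 85.1%. B3 and B3A copies carried them in 68.9% and 63.8%, and in 65.9% and 59.9% in the second experiment, and B2_Mm1a copies in 34 of 53 and 36 of 49. In NCoR ChIP, 44.1% of B2_Mm2 (26 of 59), 9.77% of B3 and 7.84% of B3A copies carried them, with 0 of 8 B2_Mm1t and 1 of 3 B2_Mm1a copies.

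AP-1 letters, by contrast, were less frequent in PGC1β B2 peaks than in B2 peaks of the other factors. They were in 11.4% and 12.8% of PGC1β B2 peaks, and in 24.4% of PU.1, 32.8% of ERK1, 35.8% of p65, 43.3% of p300, 46.1% of HDAC3, 48.2% of NCoR and 54.8% of Fosl2 B2 peaks. The highest share, 65.7%, was in the p300 osteoclast table. In all peaks, AP-1 letters were in 13.9% (PU.1) to 36.8% (p300 osteoclast). The B2 shares were thus above those of all peaks in every factor table apart from the PGC1β ones, where 17.5% and 18.1% of all peaks carried them.

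**Figure D2:**
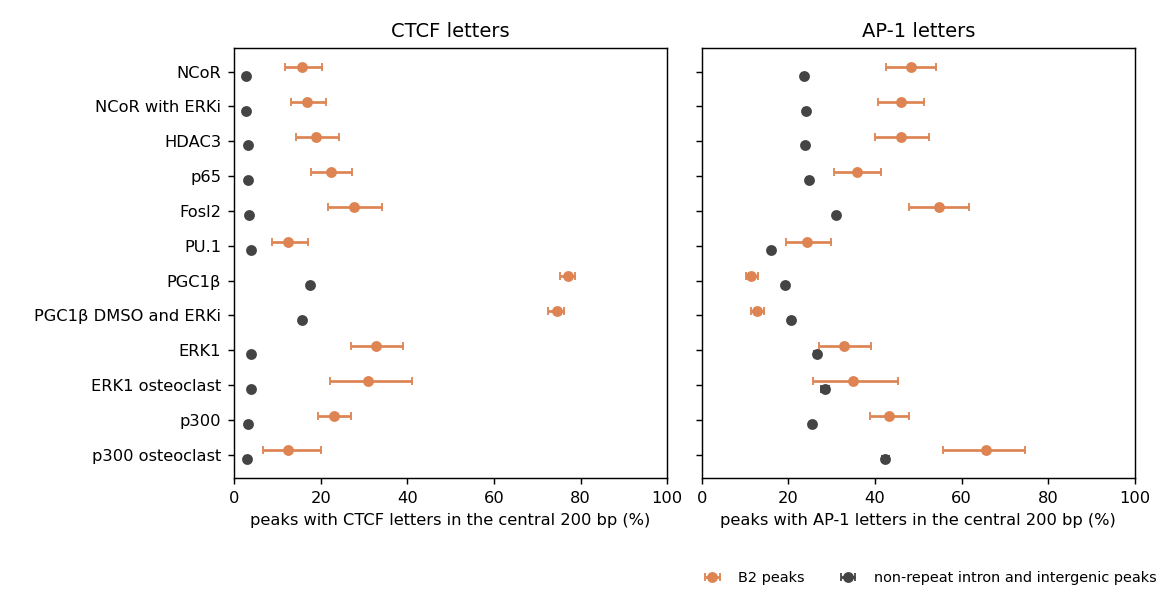
Percentage of peaks with CTCF letters (left) and AP-1 letters (right) in the central 200 bp, by table, for B2 peaks (orange) and non-repeat intron and intergenic peaks (dark), with exact 95% intervals. The B2 points of the PGC1β experiments lie at 77.0% and 74.5% for CTCF letters and at 11.4% and 12.8% for AP-1 letters, the reverse of their order in Fosl2 at 27.6% and 54.8%.

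Peaks of the other families held other letters in the central 200 bp, which can include DNA beside the copy. AGGTCA, the half-site of nuclear receptors, was in 26% to 34.9% of B4 peaks and 23.2% to 29.3% of MIR peaks over the factor tables, against 12.4% to 15.8% of all peaks. C/EBP letters were in 20.1% to 32.5% of MIR peaks against 12.2% to 18.5% of all peaks. The letters of the B box that RNA polymerase III uses (GTTCNANNC) were in 11.4% to 30.4% of B2 and 11.1% to 25.1% of Alu peaks against 5.25% to 6.97% of all peaks. PU.1 letters (GAGGAAGT) were in 17.7% of the SINE peaks bound by PU.1 (262 of 1483).

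The PGC1β B2 peaks were found again in the other PGC1β experiment and were seldom shared with other factors. Of 2184 B2 peaks, 62.5% (1365) had a peak within 100 bp in the second experiment, and of the 2048 there 66.0% (1351) had one in the first. For MIR these shares were 77.7% and 63.9%, for non-repeat peaks 77.4% and 67.3%, and for Alu 55.7% and 44.3%. A peak of any of the 7 other factors lay within 200 bp of 19.1% of the PGC1β B2 peaks (418 of 2184, 17.5 to 20.9). By contrast, this held for 68.2% of Alu, 80.6% of B4, 94.5% of MIR (343 of 363) and 73.9% of non-repeat PGC1β peaks. Split by the letters, 13.3% of B2 peaks with CTCF letters and 38.6% of those without had such a neighbour, and among non-repeat peaks with CTCF letters 32.9% did. The second experiment gave 23.3% for B2 (477 of 2048; 15.9% with and 44.7% without the letters), 75.8% for Alu, 83.0% for B4, 93.6% for MIR and 77.9% for non-repeat peaks. p300 was the most frequent neighbour of B2 peaks (11.4%), and open chromatin windows of the H3K27ac tables stood within 200 bp of 7.14% of them against 35.8% of non-repeat peaks. These tables were called with different depths and numbers of peaks, whose part in the shares was not tested.

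SINE peaks were weaker than non-repeat peaks in all 48 factor libraries. The median tags of SINE peaks over those of non-repeat peaks, repeat-free promoters and exons included, averaged 0.739 ± 0.035 (SD, n = 4 libraries) for PGC1β, 0.836 ± 0.016 (n = 6) in the second PGC1β experiment, 0.862 ± 0.022 (n = 4) for NCoR, 0.89 ± 0.062 for HDAC3, 0.816 ± 0.085 for p65 and 0.933 ± 0.035 for PU.1. Against intron and intergenic non-repeat peaks the ratio was between 0.703 and 0.969 in every library. The MIR median exceeded that of these peaks in some libraries. It was 82.74 and 84.02 tags against 75.5 and 75.93 for PU.1 in Veh. For p65 in KLA it was 50.09 and 52.68 against 44.08 and 47.89. It was lower in others, such as NCoR in Veh (33.46 and 41.19 against 37.04 and 43.55). In bulk ChIP, fewer cells with a bound copy and less binding per cell cannot be told apart. How reads that match several copies were placed is not given in the sources used here, so its part in the lower counts was not tested.

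**Figure D3:**
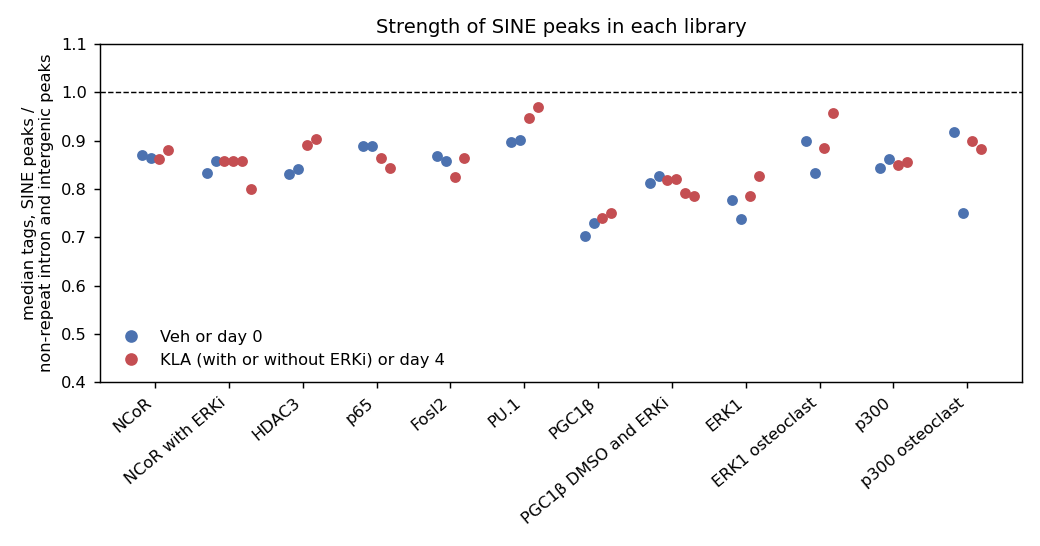
Median tags of SINE peaks divided by those of non-repeat intron and intergenic peaks (y axis) in each factor library (points), by table (x axis); blue marks Veh or day 0, red KLA or day 4, and the dashed line equal strength. Every point lies below 1, from 0.703 to 0.969, with the first PGC1β table lowest.

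The B2 peaks of PGC1β ChIP were numerous but modest in height. Their median was 14.69 and 16.27 tags per 10000000 in the Veh libraries and 19.66 and 16.02 in the KLA libraries. Non-repeat peaks had medians of 21.74 and 22.31 in Veh and 29.49 and 22.88 in KLA, higher than B2 in each library. MIR peaks had 17.63 and 19.06 in Veh and 33.86 and 25.17 in KLA, so that B2 and MIR lay near each other in Veh and apart in KLA. CTCF letters made little difference to B2 height (14.69, 15.81, 19.66 and 16.02 with them, and 15.86, 16.74, 20.75 and 17.16 without). In all, B2 copies took 3.42% to 3.75% of the tags in PGC1β peaks and 3.03% to 3.45% in the second experiment, against 0.33% to 0.71% in the other factor tables.

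The strongest SINE peak of each PGC1β experiment was a B2 family copy and passed no 2-fold limit with KLA. The Cd5l B2_Mm2 copy, in intergenic DNA 33.9 kb from the start of the nearest gene, held 120 and 142 tags in Veh and 171 and 117 in KLA. These groups overlapped, with a log2 fold change of 0.12 (SE 0.26, adjusted p = 0.774, edgeR quasi-likelihood test). In the second experiment it held 145 and 248 tags in DMSO and 241 and 162 with KLA (0.04, adjusted p = 0.942 in the same test). There the strongest was a B3 copy in a Cfap54 intron at chr10:93070588-93070945, with 191 and 200 tags in Veh, 298 and 348 in KLA and 235 and 231 in KLA with ERKi. It was 0.73 higher with KLA (SE 0.24, adjusted p = 0.0317) and 0.47 lower with ERKi (SE 0.24, adjusted p = 0.361), short of the 2-fold limit in edgeR's test. In the first experiment it held 119 and 132 tags in Veh and 151 and 95 in KLA (−0.05, adjusted p = 0.918), and these groups overlapped.

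Changes were tested over all peaks of a table with edgeR's quasi-likelihood test, and a peak was called higher or lower at a Benjamini-Hochberg adjusted p under 0.05 and more than 2-fold. The main scaling used the library totals. TMM and DESeq2 scaling centre the typical peak, which moved the median log2 fold change of all peaks from 1.46 to 0.24 and 0.27 for p65, from 1.84 to 0.22 and 0.36 for p300 at day 4, from 1.0 to 0.04 for ERK1 at day 4, from 0.65 to 0.14 and 0.18 for p300 with KLA, from 0.45 to 0.01 and −0.01 for PGC1β with DMSO, from 0.27 to −0.01 and 0.0 for HDAC3, from 0.26 to 0.06 and 0.07 for ERK1, from −0.41 to 0.0 for PU.1, from −0.2 to 0.0 and 0.01 for ERKi, from 0.06 to −0.05 and −0.06 for PGC1β and from 0.13 to −0.01 for H3K27ac. Families are therefore compared below by their median minus that of all peaks. This difference kept its sign under both other scalings for every family in every KLA and ERKi comparison, apart from Alu in Fosl2, which lay at −0.02, 0.0 and −0.01. All peaks include promoters, and intron and intergenic non-repeat peaks themselves lay above them in some comparisons. They did so by 0.18 for p300 at day 4, 0.16 for p65, 0.14 for p300 with KLA and 0.06 for Fosl2. In the other factor comparisons they lay within 0.04. Against all non-repeat peaks the median SINE change was 0.106 higher for NCoR, 0.189 HDAC3, 0.13 p65, 0.053 Fosl2, 0.049 PU.1, 0.074 PGC1β, 0.272 ERK1 and 0.206 p300. Since the non-repeat peaks hold promoters, the set matters: against intron and intergenic ones alone the difference turned to −0.146 for p65, −0.049 for Fosl2 and −0.027 for p300, and stayed above 0 for the others, at 0.037 for NCoR and 0.113 for HDAC3.

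With KLA, NCoR SINE peaks moved in both directions about as often as other peaks. Of 1735, 402 (23.2%) were higher and 294 (16.9%) lower, against 23.4% and 16.7% of all NCoR peaks. The families differed: 77 of 266 Alu peaks were higher and 33 lower, 67 of 305 B2 peaks were higher and 46 lower, 154 of 621 MIR peaks were higher and 85 lower, whereas 92 of 477 B4 peaks were higher and 117 lower. Relative to all peaks, the Alu, B2 and MIR medians lay 0.28, 0.14 and 0.13 above and the B4 median 0.27 below on the log2 scale. Among SINE peaks with IRF letters 46 of 106 were higher and 7 lower, with a median of 1.11. Without those letters 356 of 1628 were higher and 286 lower.

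The clearest NCoR gain was at the MIRb copy at chr3:90408815-90409029, which lies in an intron of Ints3, 19.0 kb from the nearest start, that of Slc27a3 (a fatty acid transport family gene). It held 2.39 and 2.35 tags in Veh and 207 and 165 in KLA, a log2 fold change of 6.22 (SE 0.41, adjusted p = 2.53e-05, edgeR). A B1F1 copy 5.5 kb from Kif3c, a kinesin gene, went from 3.58 and 5.88 to 94 and 113 tags (4.42, SE 0.43, adjusted p = 7.60e-05). The B4A copy in an intron of Vav1, which encodes a guanine nucleotide exchange factor of blood cells, had 0 and 2.35 tags in Veh and 97.2 and 86.5 in KLA (6.14, SE 0.63, adjusted p = 9.17e-05). In each of these the KLA libraries were high and did not overlap the Veh libraries. The B3A copy in an intron of St7 was already bound in Veh with 58.5 and 43.5 tags and rose to 267 and 241 (2.31, SE 0.23, adjusted p = 8.68e-05).

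NCoR losses were as clear. An ID2 copy in an intron of Cdh1, the gene of E-cadherin, fell from 307 and 260 tags to 33.2 and 47.7 (log2 fold change −2.8, SE 0.24, adjusted p = 4.87e-05, edgeR). The PB1 copy 32.5 kb from S1pr1, a receptor of sphingosine-1-phosphate, fell from 89.6 and 89.5 to 12.1 and 13.1 tags (−2.81, SE 0.35, adjusted p = 2.32e-04). All of these Veh libraries lay well above the KLA libraries. Gatad2a had a B3A copy 5.4 kb away that went from 114 and 144 to 33.2 and 33.9 tags (−1.93, SE 0.28, adjusted p = 4.68e-04). The strongest NCoR SINE peak, an MIRc copy near Gm5122, had 404 and 455 tags in Veh and 293 and 248 in KLA (−0.67, adjusted p = 0.0101), short of 2-fold.

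HDAC3 SINE peaks rose in 439 of 1434 cases (30.6%) and fell in 142 (9.9%), against 27.5% and 11.3% of all HDAC3 peaks. TMM gave 381 higher and 211 lower and DESeq2 359 and 201. Alu (77 higher and 16 lower of 226), B2 (76 and 16 of 258) and MIR (161 and 47 of 512) lay 0.29, 0.18 and 0.17 above the median of all peaks, and B4 (106 and 51 of 369) 0.02 below. Of SINE peaks with IRF letters 47 of 94 rose and 5 fell. An MIRb copy in an intron of Arhgef3, which encodes a guanine nucleotide exchange factor, went from 2.91 and 6.64 tags to 203 and 272 (5.55, SE 0.48, adjusted p = 3.11e-28, edgeR). An MIRb copy in an intron of Ptgs1, the constitutive cyclooxygenase, went from 113 and 112 to 11.7 and 5.27 (−3.54, SE 0.47, adjusted p = 2.18e-12), and neither copy had overlapping groups. The strongest HDAC3 SINE peak, a B1_Mur2 copy in a Coq2 intron, had 597 and 531 tags in Veh and 515 and 715 in KLA, which overlapped (0.12, adjusted p = 0.86).

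p65 SINE peaks rose in 914 of 1608 cases (56.8%) and fell in 135 (8.4%), against 57% and 5.43% of all p65 peaks. Rises were 87.1% of these calls, but 57.7% with TMM (415 higher, 304 lower) and 56.6% with DESeq2 (387 and 297). MIR and B2 lay at opposite ends. Of 527 MIR peaks 356 (67.6%) were higher and 9 (1.71%) lower, and of 310 B2 peaks 130 (41.9%) were higher and 57 (18.4%) lower. Relative to all peaks the MIR median was 0.36 higher and the B2 median 0.52 lower, while B4 (242 higher and 25 lower of 418) was 0.09 higher and Alu (152 and 38 of 284) 0.11 lower. Non-repeat intron and intergenic peaks were 0.16 higher, so that B4 lay below them. On the main scale the B2 median was 0.94, and it was −0.28 with TMM and −0.25 with DESeq2, so the absolute direction of the B2 family depended on the scaling. The median MIR peak held 14.01 and 15.85 tags in Veh and 50.09 and 52.68 in KLA, and the median B2 peak 14.01 and 14.92 in Veh and 28.72 and 28.73 in KLA. The Veh levels were thus alike and the KLA levels apart.

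The counts of p65 B2 peaks called differed between those with and without some letters. With CTCF letters, 17 of 69 were higher and 24 lower, with a median of −0.3, and without them 113 of 241 were higher and 33 lower, with a median of 1.09. With AP-1 letters 61 of 111 were higher and 5 lower, and without them 69 of 199 were higher and 52 lower. Over all SINE families, 17 of 18 peaks with NFκB letters (GGGA, any base, TTTCC) were higher and 0 lower, with a median of 3.45. That these subsets differ was not tested. Non-repeat peaks with the same letters are not reported here for p65. The same holds for the splits by letters of NCoR, HDAC3, Fosl2 and p300 peaks. These differences are thus not known to be particular to SINE copies.

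The clearest p65 gain among SINE copies was at the MIRc copy 66.7 kb from Sh2d4a at chr8:68209683-68209899. It held 0.876 and 1.86 tags in Veh and 323 and 324 in KLA (log2 fold change 7.8, SE 0.38, adjusted p = 6.40e-07, edgeR). The same copy was the clearest SINE gain in Fosl2 and p300 ChIP. Fosl2 went from 4.23 and 1.05 to 161 and 307 tags (6.48, adjusted p = 6.53e-08) and p300 from 0.627 and 0 to 213 and 216 (9.09, SE 0.42, adjusted p = 1.33e-10). The Fosl2 call was lost when either Veh library was left out. In each factor both Veh libraries were near 0, so the folds depend on few tags in Veh, and no KLA library overlapped them. A PB1D10 copy 2.1 kb from Slc35c1 had 0 and 1.86 tags of p65 in Veh and 131 and 142 in KLA (7.09, adjusted p = 3.26e-06). The B3 copy 1.2 kb from Rsad1 rose from 33.3 and 42.9 to 278 and 306 tags (2.94, SE 0.24, adjusted p = 3.31e-06). The strongest p65 SINE peak, the MIRb copy in an intron of Jade2, rose from 76.2 and 41.9 to 606 and 612 (3.36, adjusted p = 2.23e-06).

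p65 losses were at weaker peaks. A B1_Mur1 copy in an intron of Cd300a, a gene of an inhibitory receptor, went from 65.7 and 51.3 tags to 5.34 and 10.9 (log2 fold change −2.83, adjusted p = 4.12e-04, edgeR). The B2_Mm2 copy in an intron of Immt had 10.5 and 14.9 tags in Veh and 0 in both KLA libraries, and the MIR copy in an intron of Chn2 12.3 and 10.3 against 0 and 0. Both were called, and both calls were lost without either KLA library. An ID_B1 copy in an intron of Tcp10a rose with p65 from 15.8 and 18.6 to 278 and 280 tags and with p300 from 8.15 and 3.94 to 199 and 196, but Tcp10a has near-identical copies on the same chromosome, among which reads may be split.

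Fosl2 SINE peaks were called higher in 104 of 1035 cases (10.0%) and lower in 47 (4.54%), against 11.4% and 4.19% of all Fosl2 peaks. MIR peaks were higher in 47 of 356 cases and lower in 8, and B2 peaks higher in 8 and lower in 13 of 210. The MIR median was 0.28 above and the B2 median 0.29 below that of all peaks. Of the 58 B2 peaks with CTCF letters 0 were higher and 8 lower, with a median of −0.95. Alu (16 higher and 10 lower of 158) and B4 (30 and 15 of 270) lay within 0.03 of all peaks. Fosl2 counts rested on libraries of uneven depth: KLA replicate 1 had 16.4% of its tags in peaks and replicate 2 had 32.3%, and with either Veh library left out 0 SINE peaks were called. The strongest Fosl2 SINE peak, an MIR copy 37.1 kb from Osbpl8, had 546 and 392 tags in Veh and 310 and 542 in KLA, which overlapped (−0.13, adjusted p = 0.923, edgeR).

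PU.1 SINE peaks were lower in 288 of 1483 cases (19.4%) and higher in 80 (5.39%), against 21.7% and 4.53% of all PU.1 peaks. Rises were 21.7% of the calls, and 52.2% with TMM and with DESeq2 (155 higher and 142 lower with both). Alu peaks (9 higher and 29 lower of 193) lay 0.21 above the median of all peaks, B2 (6 and 48 of 271) 0.07 and MIR (37 and 93 of 535) 0.04 above, and B4 (26 and 109 of 427) 0.01 below. The MIR3 copy 0.8 kb from the start of Psme2, a subunit of the proteasome activator, rose from 24.8 and 30.5 tags to 197 and 198 (2.85, SE 0.15, adjusted p = 2.72e-38, edgeR). The B1_Mur4 copy in an intron of Ifi44, an interferon-induced gene, rose from 1.55 and 4.36 to 96.2 and 91.1 (5.01, adjusted p = 2.28e-32). A B4A copy 23.9 kb from Ptges, the prostaglandin E synthase gene, rose from 12.9 and 16.2 to 126 and 134 (3.16). In all of them the groups were far apart.

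The PU.1 losses included strong peaks. The RSINE1 copy 21.7 kb from Sod1, the superoxide dismutase gene, fell from 250 and 251 tags to 56.3 and 51 (log2 fold change −2.23, SE 0.12, adjusted p = 4.31e-37, edgeR). A B3 copy 48.9 kb from Cd93 fell from 342 and 402 to 101 and 109 (−1.81, SE 0.1, adjusted p = 7.71e-37), and an MIRb copy in an intron of Dusp27 from 152 and 194 to 20.9 and 15.3 (−3.24). The losses exceeded the spread between replicates under every scaling tried. The strongest PU.1 SINE peak, a B1_Mur3 copy 25.4 kb from Ptpn1, had 386 and 401 tags in Veh and 404 and 432 in KLA (0.09, adjusted p = 0.318).

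PGC1β SINE peaks were called less often than PGC1β peaks in general, through the B2 copies. Of 3118, 382 (12.3%) were higher and 137 (4.39%) lower, against 16.4% and 6.35% of all PGC1β peaks. TMM gave 376 higher and 217 lower and DESeq2 299 and 145. Of 2184 B2 peaks 153 (7.01%) were higher and 82 (3.75%) lower. In MIR these counts were 111 (30.6%) and 17 (4.68%) of 363, in Alu 48 (25%) and 12 of 192, in B4 61 (19.1%) and 24 of 320, and in non-repeat peaks 5091 (17.0%) and 1979 (6.62%) of 29878. Relative to all peaks the MIR and Alu medians were 0.45 and 0.32 higher, B4 0.07 higher and B2 0.03 lower. B2 peaks with CTCF letters were higher in 106 and lower in 57 of 1682 cases, and those without in 47 and 25 of 502. Non-repeat peaks with the letters were also seldom higher (194, or 3.7%, of 5240), against 4897 (19.9%) of 24635 without. B2 peaks with AP-1 letters were higher in 38 of 250 cases (15.2%) and lower in 6.

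The second PGC1β experiment, which shares no library with the first, had the same order of families. Of 3199 SINE peaks 387 (12.1%) were higher with KLA and 23 (0.719%) lower, against 16.4% and 1.23% of all peaks. TMM gave 176 higher and 59 lower and DESeq2 195 and 80, so rises were 94.4%, 74.9% and 70.9% of the calls. B2 peaks were higher in 129 (6.3%) and lower in 11 (0.537%) of 2048 cases, MIR in 129 (27.7%) and 3 of 466, Alu in 49 (18.6%) and 4 of 264, and B4 in 62 (17.3%) and 5 of 358. The median was 0.34 above that of all peaks in MIR, 0.21 in Alu and 0.18 in B4, and 0.12 below in B2. Peaks of the experiments, also those of named copies, were matched by centres within 100 bp, whatever the annotation of the matched peak. Of the 382 SINE peaks called higher in the first experiment, 249 had a peak in the second, 153 of these (61.4%) were called higher there and 0 lower, and 237 (95.2%) had the same sign. For B2 this was 40 of 92 (43.5%) with 87 of the same sign, for MIR 67 of 86 (77.9%) with 84, and for non-repeat peaks 2737 of 3899 (70.2%). Of the 137 called lower, 86 had a peak in the second experiment, 7 of them (8.14%) were called lower there and 73 (84.9%) had the same sign, against 181 of 1493 (12.1%) called lower again among non-repeat peaks.

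The clearest PGC1β gain was at the Mdfic B2_Mm2 copy, 49.0 kb from that gene (chr6:15671459-15671892). It held 10.6 and 10.2 tags in Veh and 118 and 81.8 in KLA (log2 fold change 3.24, SE 0.37, adjusted p = 1.08e-05, edgeR). In the second experiment it held 10.6 and 33.5 in DMSO and 227 and 159 with KLA (3.23, SE 0.44, adjusted p = 1.46e-05). KLA libraries were higher than all Veh libraries in both. The clearest loss was at the Phb B2_Mm2 copy 20.5 kb from the prohibitin gene (chr11:95687340-95687570), with 41.7 and 33.9 tags in Veh and 1.09 and 0.572 in KLA (−5.5, SE 0.7, adjusted p = 3.09e-05). In the second experiment it had 45.5 and 53.9 against 17.8 and 22.3 (−1.29, SE 0.8, adjusted p = 0.286), lower in both KLA libraries but past no threshold.

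Near Ptgs2, the inducible cyclooxygenase gene and one of the study's loci, PGC1β bound a pair of SINE copies with KLA. The B1_Mur1 copy 9.4 kb away at chr1:150109347-150109557 had 0 tags in both Veh libraries and 33.9 and 40.6 in KLA, with an adjusted p of 1.11e-05 in edgeR's test. In the second experiment the matched peak, at chr1:150109306-150109651, had 0.812 and 4.37 tags in DMSO and 67.1 and 74.4 with KLA (4.94, SE 0.66, adjusted p = 1.02e-05). The B3 copy in a Ptgs2 intron went from 4.7 and 2.32 to 41.5 and 20 (3.1, adjusted p = 0.00118). In all of these the groups were apart. The RSINE1 copy 15.2 kb from Rsad2, an interferon-induced antiviral gene, had 1.76 and 1.86 tags in Veh and 41.5 and 36 in KLA (4.35, SE 0.57, adjusted p = 4.07e-05).

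In the second experiment the clearest gain was at the Arhgef3 MIRb copy, with 0.812 and 0 tags in DMSO and 94.7 and 92.3 with KLA (log2 fold change 7.1, adjusted p = 5.16e-07, edgeR). The first experiment had 3.53 and 6.51 against 65.5 and 33.7 there (3.23, adjusted p = 1.92e-04). The clearest loss was at a B3A copy in a Cep85 intron, from 67.4 and 81.6 to 1.97 and 4.47 tags (−4.4, adjusted p = 1.08e-04), and from 44.7 and 46 to 9.83 and 5.15 in the first experiment (−2.68, adjusted p = 4.78e-04). Both copies thus had separate groups in each experiment.

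ERKi changed few SINE peaks of PGC1β. Of 3199, 4 (0.125%) were higher and 7 (0.219%) lower with ERKi plus KLA than with DMSO plus KLA, against 0.108% and 0.178% of all peaks. At an unadjusted p under 0.05 there were 437. TMM gave 4 and 1 and DESeq2 14 and 14. The MIR median lay 0.25 and the B4 median 0.13 below that of all peaks, whereas the B2 median lay 0.01 above. The MIRb copy in a Ccl5 intron, 0.7 kb from the start of this chemokine gene, rose from 73 and 32.7 tags to 183 and 264 with ERKi (2.11, SE 0.42, adjusted p = 0.0257, edgeR). The MIRb copy near Gm4719 had 47.4 and 68.5 tags with DMSO and 0 and 5.17 with ERKi (−4.31, adjusted p = 0.0249), and the B1F copy in an intron of Dock11, 61.6 kb from Il13ra1, a receptor gene of interleukin 13, 0 and 0 against 54.8 and 32.3. All of these calls were lost when any library of the comparison was left out. Since the DMSO plus KLA libraries served in both comparisons, the KLA and ERKi values of a copy are not independent.

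ERK1 SINE peaks rose with KLA in 112 of 993 cases (11.3%) and fell in 22 (2.22%), against 10.3% and 2.53% of all ERK1 peaks, with 87 and 31 under TMM and 88 and 37 under DESeq2. Here B2 had the highest median of the families, 0.43 above that of all peaks (29 higher and 4 lower of 253), followed by Alu at 0.25 (24 and 6 of 194), MIR at 0.2 (36 and 2 of 273) and B4 at 0.15 (16 and 9 of 234). The strongest and clearest was a B3A copy in an intron of Best1, 3.8 kb from the start of Fth1, the ferritin heavy chain gene, with 73.9 and 74 tags in Veh and 360 and 286 in KLA (2.12, SE 0.28, adjusted p = 0.00447, edgeR). An RSINE1 copy in an intron of Ppp1r12a fell from 55.1 and 65.9 to 8.61 and 8.17 (−2.83, SE 0.56, adjusted p = 0.0127).

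p300 SINE peaks rose in 1021 of 2350 cases (43.4%) and fell in 293 (12.5%), against 42.1% and 12.9% of all p300 peaks. Rises were 77.7% of these calls, 60.7% with TMM (779 and 504) and 61.3% with DESeq2 (719 and 453). MIR was again highest, with 394 higher (49.9%) and 61 lower (7.73%) of 789 and a median 0.4 above all peaks, and B2 lowest, with 166 higher (34.2%) and 80 lower (16.5%) of 485 and a median 0.24 below. The B2 median of 0.41 became −0.11 with TMM and −0.06 with DESeq2. Alu (165 and 57 of 379) and B4 (255 and 88 of 599) lay 0.05 and 0.08 above all peaks, but below non-repeat intron and intergenic peaks at 0.14. Of SINE peaks with C/EBP letters 257 of 459 (56.0%) were higher and 36 lower, and of those without 764 of 1891 (40.4%) and 257. With AP-1 letters, 400 of 766 (52.2%) were higher and 34 lower. In B2, 92 of 210 with AP-1 letters were higher and 9 lower, and 74 and 71 of 275 without.

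Among p300 peaks, the PB1D7 copy 80.1 kb from Slc37a3 went from 3.76 and 2.63 tags to 182 and 201 (log2 fold change 5.86, SE 0.3, adjusted p = 3.47e-10, edgeR). A pair of copies in Apobec1 introns fell together, a B4A copy from 74 and 104 to 13.8 and 11.9 (−2.78, adjusted p = 1.29e-06) and a B3A copy from 45.8 and 63.7 to 5.12 and 4.86 (−3.43, adjusted p = 3.87e-06). Apobec1 encodes the enzyme that edits apolipoprotein B messenger RNA. The PB1D9 copy 8.1 kb from Ucp2, a mitochondrial carrier gene, fell from 67.7 and 56.5 to 9.21 and 8.65 (−2.79, adjusted p = 5.64e-06). In each of them the Veh and KLA libraries were apart. The strongest p300 SINE peak, an MIRb copy 58.9 kb from the kinase gene Pim1, rose from 265 and 241 to 468 and 448 (0.86, SE 0.13, adjusted p = 3.08e-05), short of 2-fold.

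**Figure D4:**
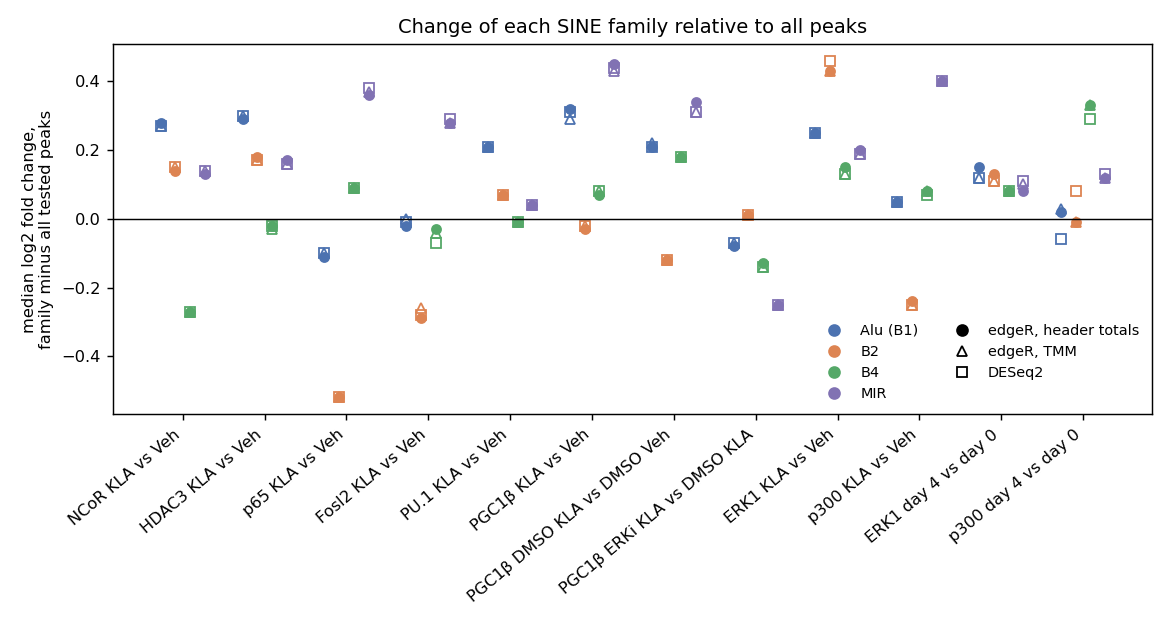
Median log2 fold change of each SINE family minus that of all tested peaks (y axis) in the 12 factor comparisons (x axis), for edgeR with library totals (filled circles), edgeR with TMM (triangles) and DESeq2 (squares). MIR lies above 0 with KLA in every factor, up to 0.45, and B2 lies lowest for p65, Fosl2 and p300, at −0.52, −0.29 and −0.24.

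In the osteoclast series, 409 of 608 p300 SINE peaks (67.3%) were higher at day 4 than at day 0 and 2 (0.329%) lower, against 62.2% and 0.248% of all p300 peaks. Of non-repeat intron and intergenic peaks 69.9% were higher and 0.129% lower. With TMM there were 40 higher and 18 lower and with DESeq2 9 and 6, so both the number and the balance of calls rested on the scaling. The peaks called on either day had been merged, and by the paper's counts most of them were called at day 4. Peaks that entered through day 4 tend to be higher there by selection. The part of this in the rises was not tested. The counts by family were 56 higher and 0 lower of 90 in Alu, 65 and 0 of 105 in B2, 115 and 1 of 166 in B4 and 155 and 1 of 214 in MIR. Relative to all peaks B4 was 0.33 and MIR 0.12 higher under the main scaling, and both stayed above 0 under the others. Alu and B2 lay at 0.02 and −0.01, and at −0.06 and 0.08 with DESeq2. Non-repeat intron and intergenic peaks lay 0.18 above all peaks under each of these scalings. B4 was thus above them, and MIR, Alu and B2 were below. Of SINE peaks with AP-1 letters 227 of 304 (74.7%) were higher, and 182 of 304 (59.9%) without.

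The MamSINE1 copy 30.1 kb from Ndrg4 had 1.76 and 0 tags of p300 at day 0 and 101 and 102 at day 4 (log2 fold change 6.21, SE 0.68, adjusted p = 9.09e-05, edgeR). Of 7 SINE peaks at listed osteoclast genes 6 were higher, beside 62.2% of all p300 peaks. In other gene lists 3 of 4 AP-1 and ERK feedback, 2 of 2 signalling, 1 of 3 cytokine, 1 of 4 lipid and 1 of 2 macrophage peaks were higher. The copies named next were picked because they were called. The MIR copy 29.1 kb from Jdp2, an AP-1 family gene needed for osteoclasts, went from 0.879 and 10.6 to 148 and 115 (4.99, adjusted p = 1.84e-04, edgeR). The MIRc copy 7.0 kb from Mmp9, a matrix metalloprotease gene, went from 5.27 and 12.8 to 132 and 108 (3.92, SE 0.5, adjusted p = 1.74e-04). The B3A copy in an intron of the kinase gene Src went from 8.79 and 12.8 to 79.2 and 72.6 (2.87, adjusted p = 8.25e-04). The RSINE1 copy 6.6 kb from Acp5, which encodes tartrate-resistant acid phosphatase, went from 6.15 and 0 to 39.1 and 35.2 (3.15, adjusted p = 0.00605). Day 4 was above day 0 in every library of these copies, but with DESeq2 the Mmp9, Src and Acp5 calls were lost and the Jdp2 call kept. An MIR3 copy 2.3 kb from Unk fell from 20.2 and 29.8 to 6.85 and 5.67 (−1.9, adjusted p = 0.0192), a call lost without either day 4 library. The strongest SINE peak, the Osbpl8 MIR copy, rose from 67.7 and 44.7 to 269 and 298 (2.29, adjusted p = 3.02e-04), a call lost with TMM and with DESeq2.

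ERK1 in the osteoclast series gave 15 higher (3.04%) and 0 lower (0.0%) of 494 SINE peaks at day 4, against 2.33% and 0.0267% of all peaks. At an unadjusted p under 0.05 there were 162, and no SINE peak was called with TMM or DESeq2. Here too the peaks of both days had been merged, and by the paper's counts most were called at day 4. The RSINE1 copy in an intron of Zfp609, whose nearest start is that of Oaz2 69.1 kb away, had 0 and 1.05 tags at day 0 and 32.7 and 33.4 at day 4 (log2 fold change 5.75, SE 1.08, adjusted p = 0.0217, edgeR).

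The gene lists were of cytokines, Toll-like receptor and NFκB signalling, AP-1 and ERK feedback, interferon response, LXR and lipid targets, macrophage lineage and osteoclast genes, and a SINE peak counted for its nearest gene. A further list held 7 of the study's loci. There KLA raised PGC1β at 2 of 4 SINE peaks, but at 0 of 2 in the second experiment. It raised p300 at 1 of 3 and p65, Fosl2 and ERK1 at 1 of 1 each. NCoR was called at 0 of 1 and HDAC3 at 0 of 2. The shares over all peaks are those given above for each factor. For p65, all 5 SINE peaks at cytokine genes were higher with KLA, as were 7 of 8 at AP-1 and ERK feedback genes, 4 of 6 at signalling genes, 5 of 5 at osteoclast genes, 7 of 12 at macrophage genes, 2 of 5 at lipid genes and 1 of 1 at interferon genes, beside 57% of all p65 peaks, and 1 macrophage and 1 lipid peak were lower. p300 rose at 8 of 11 cytokine, 10 of 12 AP-1 and ERK feedback, 9 of 12 signalling, 8 of 11 osteoclast, 7 of 17 macrophage, 3 of 12 lipid and 0 of 3 interferon peaks, beside 42.1%, and was lower at 1 AP-1, 1 macrophage and 2 lipid peaks. An MIR copy 27.9 kb from Lif, a cytokine of the interleukin 6 family, gained p65 from 7 and 2.8 tags to 153 and 162 (log2 fold change 4.96, adjusted p = 3.15e-06, edgeR) and p300 from 12.5 and 9.2 to 148 and 174 (3.87). An MIRc copy 2.5 kb from Tnip1, an inhibitor of NFκB signalling, gained p65 from 38.5 and 25.2 to 224 and 240 (2.86, adjusted p = 8.15e-06) and p300 from 55.2 and 46.7 to 175 and 179 (1.8). At Batf, an AP-1 family gene, an ID_B1 copy gained p65 from 21 and 25.2 to 145 and 169 (2.76) and p300 from 44.5 and 54.5 to 185 and 171 (1.85). No KLA library overlapped a Veh library at these copies.

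NCoR gave fewer calls on the lists. It was higher at 2 of 5 cytokine peaks, 2 of 3 interferon peaks and 4 of 13 macrophage peaks, higher at 3 and lower at 1 of 9 lipid peaks, higher at 1 of 11 osteoclast peaks and lower at 1 of 10 AP-1 and ERK feedback peaks, and called at 0 of 2 signalling peaks, beside 23.4% higher and 16.7% lower of all NCoR peaks. The PB1D10 copy in an Ifit2 intron had 0 tags in both Veh libraries and 46.2 and 52.6 in KLA. The ID_B1 copy 9.3 kb from Pltp, the phospholipid transfer protein gene, fell with NCoR from 184 and 181 to 72.1 and 63.6 (−1.43, SE 0.22, adjusted p = 6.62e-04). For PU.1, 1 of 12 macrophage peaks was higher and 3 were lower, among them the PB1D10 copy 26.7 kb from Cebpa, a myeloid lineage factor gene, which fell from 61.5 and 77.2 to 3.27 and 10.2 (−3.33). Of the other lists PU.1 was higher at 1 of 3 cytokine, 1 of 2 interferon and 1 of 7 osteoclast peaks, higher at 1 and lower at 1 of 6 AP-1 and ERK feedback peaks, and called at 0 of 2 signalling and 0 of 2 lipid peaks.

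At HDAC3 peaks, macrophage genes had 5 higher and 1 lower of 12, lipid genes 2 and 1 of 8 and AP-1 and ERK feedback genes 1 and 1 of 5, while 2 of 4 cytokine, 1 of 2 signalling, 2 of 2 interferon and 2 of 8 osteoclast peaks were higher and 0 lower, beside 27.5% and 11.3% of all HDAC3 peaks. The PB1D7 copy near Nfkbia, the gene of the NFκB inhibitor IκBα, rose from 5.09 and 6.64 tags to 70.9 and 155 (4.19, adjusted p = 1.23e-15, edgeR). For PGC1β, 3 of 8 cytokine peaks were higher and 1 lower, 5 of 15 AP-1 and ERK feedback peaks were higher and 1 lower, 3 of 15 macrophage peaks were higher and 1 lower, and 3 of 8 signalling, 2 of 5 interferon, 2 of 8 lipid and 3 of 8 osteoclast peaks were higher, beside 16.4% and 6.35% of all peaks. The second experiment had 6 of 12 cytokine, 8 of 18 macrophage, 4 of 12 AP-1 and ERK feedback, 1 of 6 signalling, 3 of 11 interferon, 1 of 8 lipid and 3 of 9 osteoclast peaks higher and 0 lower, beside 16.4% and 1.23%. There a B2_Mm1t copy 17.2 kb from Il6 went from 5.68 and 8.74 to 59.2 and 37.2 tags (2.75, adjusted p = 0.00821), and an MIR copy 216.5 kb from Prdm1, a transcription factor gene of osteoclasts, from 4.06 and 0 to 53.3 and 81.9 (4.69, adjusted p = 1.95e-04), after 2.94 and 0.93 against 39.3 and 31.5 in the first experiment (4.2). The Il6 call was lost without DMSO KLA replicate 1 or DMSO Veh replicate 1.

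Most SINE loci in BMDMs were SINE peaks of a single factor, and MIR loci were shared most. Only peaks annotated to a SINE copy were counted here. A peak of another factor centred beside the copy was thus left out, and these shares understate sharing. Of 7626 loci tested in the 9 KLA comparisons, 5017 (65.8%) were SINE peaks of 1 of the 8 factors. This was 81.9% of B2 loci (2926 of 3574), 65.2% of Alu, 52.6% of B4 and 39.7% of MIR loci (545 of 1374). Peaks of 7 or 8 factors stood at 372 loci (4.88%), namely at 171 MIR loci (12.4%), 93 B4 (6.79%), 41 Alu (3.78%) and 51 B2 (1.43%). Of the 1000 loci called in 2 or more factors, 765 were higher in each factor that called them, 215 were lower in each and 20 were higher in one and lower in another. The factors were tested in separate libraries, although they come from the same kind of culture. Loci called higher in 7 or more factors numbered 25, of which 17 were MIR, 4 B4, 2 Alu and 1 B2, and 2 were called lower in 7. None of these counts was made for non-repeat loci, so they are not known to be particular to SINE loci. Over all peaks, rises outnumbered falls in every KLA comparison apart from PU.1. For p65 they were 57% against 5.43%, and for p300 42.1% against 12.9%.

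The loci called in the most factors are named here after their values were seen. Higher in all 8 factors were 9 loci, 7 of them MIR, among them copies near Tspan3, Psme2, Tmbim6, Jade2 and Ssh2. At the Tspan3 MIRb copy, 7.1 kb from this tetraspanin gene, NCoR rose from 35.8 and 20 to 174 and 146 tags (log2 fold change 2.51, SE 0.31, adjusted p = 2.25e-04, edgeR), p65 from 4.38 and 10.3 to 262 and 309 (5.28) and p300 from 24.4 and 16.4 to 401 and 360 (4.21). HDAC3 rose there from 16.7 and 30.4 to 145 and 204 (2.85), PU.1 from 39.3 and 43.6 to 182 and 184 (2.14), Fosl2 from 67.7 and 24.1 to 279 and 464 (3.03), ERK1 from 7.87 and 18.5 to 87.3 and 113 (2.86) and PGC1β from 12.3 and 7.44 to 122 and 80.7 (3.36). The KLA libraries were above the Veh libraries for each factor. At the Tmbim6 MIR copy the log2 fold change lay between 2.31 for ERK1 and 4.06 for Fosl2, and at the MIRb copy near Ch25h, the cholesterol 25-hydroxylase gene, between 1.66 for NCoR and 3.45 for p65, with Fosl2 not called (1.8, adjusted p = 0.0984).

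The only B2 locus higher in 7 factors was the B3 copy in an intron of Wdr93, 13.1 kb from the nearest start, that of Mesp1, where PU.1 went from 33.6 and 40.5 to 150 and 122 tags (log2 fold change 1.88), p65 from 4.38 and 7.46 to 112 and 140 (4.4) and p300 from 8.15 and 5.91 to 88 and 101 (3.73). Lower in 7 factors were the Zranb3 B4 copy and an MIRb copy in an intron of Rhobtb1. At Zranb3, in an intron of a DNA annealing helicase gene, NCoR fell from 76.5 and 90.6 to 7.29 and 6.92 (−3.54, SE 0.4, adjusted p = 1.49e-04, edgeR), HDAC3 from 91.7 and 87.9 to 11.7 and 5.27 (−3.22) and p65 from 65.7 and 68.1 to 12 and 12.3 (−2.45, adjusted p = 2.86e-04). PU.1 fell from 103 and 95.2 to 30.1 and 22.9 (−1.9), PGC1β from 32.3 and 39.5 to 10.9 and 8.58 (−1.91), ERK1 from 33 and 43.9 to 6.15 and 5.44 (−2.7) and p300 from 50.8 and 40.7 to 10.7 and 10.8 (−2.08). Fosl2 had 74.8 and 77.6 tags in Veh and 0 and 28.1 in KLA, which missed the threshold (−2.29, adjusted p = 0.0655). The second PGC1β experiment had 38.2 and 55.4 against 25.7 and 0 there, also short of it (−1.93, adjusted p = 0.188). At Rhobtb1, NCoR went from 124 and 141 to 21.9 and 22.8 (−2.56, SE 0.29, adjusted p = 1.38e-04) and Fosl2 from 71.9 and 84.9 to 0 in both KLA libraries.

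**Figure D5:**
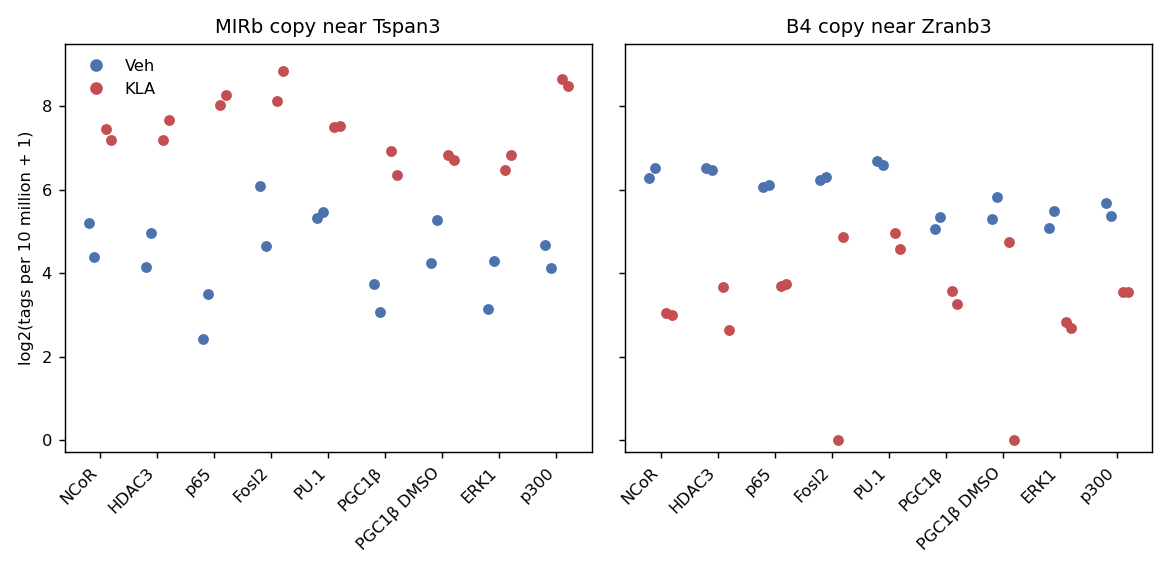
Tags per 10000000 at the Tspan3 MIRb copy and the Zranb3 B4 copy in each library, as log2 of tags plus 1 (y axis), by factor (x axis), with Veh in blue and KLA in red. KLA libraries lie above Veh libraries for every factor at Tspan3 and below them at Zranb3.

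H3K27ac at SINE regions could be followed where open regions had been counted. In the table of WT and NKO cells there were 452 SINE regions, of which 306 passed the filter on low counts. In WT cells 24 (7.84%) were higher with KLA and 15 (4.9%) lower, against 6.49% and 3.72% of all regions tested, with 15 and 19 under TMM and 13 and 14 under DESeq2. All families lay below the median of all regions, Alu by 0.24, B2 by 0.46, B4 by 0.17 and MIR by 0.27, under every scaling. An MIRb copy 39.7 kb from Srrm1 rose from 70.6 and 60.6 to 155 and 190 tags (log2 fold change 1.4, SE 0.18, adjusted p = 5.34e-08, edgeR), and an MIR copy in an intron of Xylt1 fell from 67.5 and 60.1 to 10.1 and 10.3 (−2.63, SE 0.32, adjusted p = 2.37e-08).

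B2 regions held little acetylation where they carried CTCF letters. In the tables of DMSO and RGFP966 and of PGC1b flox/flox cells, which share their 1000-bp windows, the median B2 region held 5.51 to 9.87 tags over the libraries. With CTCF letters it held 2.48 to 4.21 and without 14.45 to 28.3, and these ranges did not overlap. The medians were 27.77 to 75.04 in Alu, 23.77 to 61.21 in B4, 22.14 to 63.85 in MIR and 20.95 to 54.63 in non-repeat regions. Non-repeat regions with CTCF letters had 3.67 to 5.42. In the table of WT and NKO cells, which has other windows, the 14 B2 regions with the letters held 0.63 to 3.57 over the libraries and the 58 without 5.56 to 9, but non-repeat regions held 6.92 to 9.87 with the letters and 8.8 to 12.53 without, so outside repeats those ranges overlapped. No test was made, since the letters were chosen with results of these data known.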

How the data were processed

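The deposited tables held raw tag counts per peak, which the authors made with HOMER annotatePeaks on mm10 without adjustment (at most 3 tags per position, per the file headers). Reads were aligned with Bowtie2, and peaks were called with HOMER, filtered by IDR on replicate pairs and merged over conditions. Versions and the treatment of multiply mapping reads are not given in the sources used here. Of 15 tables with 74 count columns, 12 were of factors and 3 of H3K27ac, and the 30 input samples were not used. H3K27ac had been counted over open regions from ATAC-seq.

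SINE peaks were rows whose detailed annotation held that class. The members, gene lists and motif letters were chosen with earlier results of these data known. Counts were tested over all peaks of a table with at least 4 tags in 1 library (16 for H3K27ac) by edgeR 4.0.16's quasi-likelihood test (R 4.3.3), with library totals of the file headers as library sizes. Calls needed a Benjamini-Hochberg adjusted p under 0.05 and over 2-fold, and SE is the log2 fold change over the root of F. Tested alternatives were TMM, DESeq2 1.42.0, no filter, a replicate block, intron and intergenic peaks alone and leaving out each library, and the script was tested on simulated data. Library totals of 4296236 to 21511411 tags limit the precision of weak peaks. Shares have exact 95% intervals.

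Named peaks were those of lowest p per comparison and direction, per family in the KLA comparisons of NCoR, p65, PU.1, PGC1β and p300, the strongest per table, and up to 3 called peaks per gene list. Sequences and intron hosts came from RefSeq GRCm38. Replicate numbers did not pair libraries: the correlation of deviations over 31 pairs of groups was −0.027 to 0.088. No libraries were identical. Peaks on chromosome 18 were not named. Some named peaks and sequences are not reported here.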

Additional observations from a re-analysis of the deposited data

How the results depend on the processing

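Of 191 named calls, 107 were kept under every alternative, 84 were lost in at least 1, and 1 changed sign, the MIR copy near Ccl2 for p300 at day 4, at −0.09 with TMM.

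Counts of called SINE peaks moved with scaling. DESeq2 gave 684 for p65 (1049 in the main test), 306 for Fosl2 (151), 28 for ERKi (11), 0 for ERK1 at day 4 (15) and 15 for p300 at day 4 (411), and TMM gave 268 for Fosl2, 235 for PGC1β with DMSO (410), 5 for ERKi, 0 for ERK1 at day 4 and 58 for p300 at day 4. With the replicate block there were 35 for Fosl2, 2 for ERKi, 81 for ERK1 (134) and 249 for p300 at day 4. The replicate numbers share only a number between groups, so the block stands for no known pairing. Why calls were lost with it was not tested.

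Leaving out 1 library also moved the counts. NCoR (696) ranged from 242 to 808, with 265 without KLA 1 and 242 without KLA 2. HDAC3 (581) ranged from 202 to 656, with 202 without Veh 1 and 215 without Veh 2. p65 ranged from 442 to 1146, with 494 without KLA 1 and 442 without KLA 2. Fosl2 ranged from 0 to 424, with 0 without either Veh library, 341 without KLA 1 and 424 without KLA 2. PU.1 (368) stayed at 365 to 381. PGC1β (519) ranged from 201 to 908, with 201 without Veh 1, 203 without Veh 2 and 908 without KLA 2. PGC1β with DMSO ranged from 172 to 309, with 172 without Veh 1, 220 without Veh 2 and 255 without KLA 1. ERKi fell to 0 or 1, ERK1 ranged from 22 (without KLA 1; 30 without KLA 2) to 142, p300 (1314) from 859 (without KLA 1) to 1337, ERK1 at day 4 from 0 without either day 4 library to 45 and 46 without day 0 library 1 or 2, p300 at day 4 from 60 (without day 4 library 2; 87 without library 1) to 481, and H3K27ac (39) from 21 (without either Veh library; 22 without KLA 2) to 41.

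Against intron and intergenic peaks only, the median SINE change minus that of non-repeat peaks was 0.037 for NCoR, 0.113 HDAC3, −0.146 p65, −0.049 Fosl2, 0.078 PU.1, 0.031 PGC1β, 0.006 PGC1β with DMSO, −0.048 ERKi, 0.179 ERK1, −0.027 p300, −0.047 p300 at day 4 and −0.173 H3K27ac. The sign thus turned for p65, Fosl2, p300 and p300 at day 4 (0.181 in the main test). It was 0.166 for p65 with the block and 0.073 for Fosl2 with DESeq2. With 1 library left out it ranged from 0.16 to 0.189 for HDAC3, 0.128 to 0.166 p65, 0.028 to 0.068 PU.1, 0.001 to 0.035 PGC1β with DMSO, −0.079 to −0.06 ERKi, 0.218 to 0.289 ERK1, 0.147 to 0.21 p300, 0.029 to 0.195 ERK1 at day 4, 0.166 to 0.23 p300 at day 4 and −0.252 to −0.191 H3K27ac. SINE shares of intron and intergenic peaks were 3.77% for NCoR, 3.89% NCoR with ERKi, 3.56% HDAC3, 3.66% p65, 3.82% Fosl2, 3.52% PU.1, 8.09% PGC1β, 7.28% in its second experiment, 4.42% ERK1, 4.19% ERK1 osteoclast, 4.01% p300 and 3.74% p300 osteoclast. Strength ratios against these peaks were 0.853 for Fosl2 and 0.809 for PGC1β with DMSO. The cause of these shifts was not tested.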
